A study of Equus caballus with 3 samples.

Results

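Glycolysis enzymes turn glucose into pyruvate and lactate in the cytosol, and the transcripts of 10 of them (HK2, PFKP, ALDOA, TPI1, GAPDH, PGK1, PGAM1, ENO1, PKM and LDHA) were followed by name in single-cell RNA sequencing (scRNA-seq) data of equine mesenchymal stromal cells (MSCs). A row was found for 9 of the 10 genes among 29927 gene rows, and ENO1 (enolase 1) was not analysed here because no row carried its symbol. The MSCs were grown from fat (adipose tissue, AT), from marrow (bone marrow, BM) and from blood (peripheral blood, PB) of 1 mare, a healthy warmblood aged 10 years. Cells of the 3 donor-matched cultures were captured after 2 passages without a treatment, on a droplet platform that reads each transcript near its 3′ end and counts it once per cell by its unique molecular identifier (UMI). Each source had 1 library, so a difference between sources cannot be told apart from a difference between cultures or libraries, and no test between sources was possible. The titles of the samples give the 3 tissues, whereas their source name gives blood mononuclear cells in all 3 cases.

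Glycolysis yields ATP without oxygen and supplies carbon to the pentose phosphate, serine and lipid pathways. Cultured stromal and other dividing cells are known for high glycolytic flux, and many genes of the pathway are textbook targets of the hypoxia-inducible factors. Hexokinase and phosphofructokinase are the regulated entry steps, and lactate dehydrogenase closes the pathway by turning pyruvate into lactate, which regenerates the NAD+ that GAPDH consumes.

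The analysis used barcodes that held between 2500 and 15000 UMIs and no more than 3% from the mitochondrial genome, which left 5403 AT-, 5580 BM- and 5318 PB-derived MSCs with 39980656, 40239295 and 41622445 UMIs and median depths of 7291, 6874.5 and 7750 UMIs. The 7 stromal markers were detected in all 3 libraries, from COL1A2 at 3879 to 7093 counts per 1e6 UMIs (CPM) down to ENG at 62.2 to 70.4, and THY1 had 90.5 CPM in PB against 665 in AT and 531 in BM. The summed CPM of 6 haematopoietic markers was at most 1.37, with PTPRC and LCP1 at 0. The summed CPM of 4 endothelial markers was at most 0.192 and that of 3 adipocyte markers at most 2.88, while smooth muscle or pericyte markers ranged from 616 in PB to 931 in AT, where DES reached 204 CPM against 5.04 in BM and 0.288 in PB. Between 37 and 42 barcodes were kept in both libraries of a pair. The AT library held every one of the 5318 barcodes kept for PB, most of them under 2500 UMIs and therefore outside the kept AT cells, of which 74 had a barcode that also occurred in the PB library.

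The first question was whether the glycolysis transcripts differed between the tissue sources. Glycolysis transcripts were most abundant in PB-derived MSCs, with a summed level of 5844 CPM in AT (95% Poisson interval 5820 to 5868), 6318 in BM (6293 to 6342) and 7459 in PB (7433 to 7486). All 9 genes were higher in PB than in AT, beside 53.5% of the 6720 genes with at least 10 CPM in 1 of these libraries. PB was the highest source for 8 of the 9, beside 20.8% of the 7211 genes with at least 10 CPM in any library. AT was the lowest for 8, beside 47.1% of those genes, and 7 followed the order AT below BM below PB, beside 14.2%. Within cycling cells (those with a TOP2A UMI), PB was the highest source for 5 of the 9, but the share of all genes was not computed within these cells. The differences of the sum in log2(CPM + 1) within them were 0.17 in place of 0.35 for PB minus AT and 0.089 in place of 0.24 for PB minus BM. There GAPDH and HK2 were lower in PB than in AT (-0.18 and -0.039), and PFKP and HK2 lower than in BM (-0.031 and -0.39), although the intervals of HK2 and PFKP overlapped. Poisson intervals here and below cover counting error only.

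**Figure D1:**
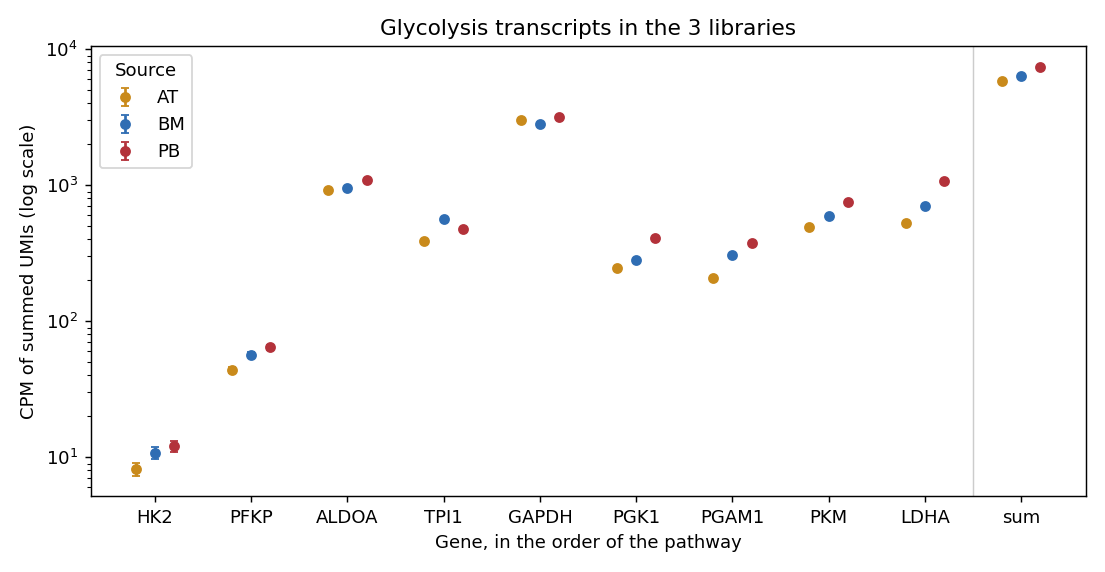
CPM of summed UMIs (y axis, log scale) of the 9 glycolysis genes in the order of the pathway and of their sum in kept AT-, BM- and PB-derived MSCs, 1 point per library, with exact 95% Poisson intervals as bars, most of them smaller than the points. PB is highest except for TPI1, and the spread between sources is widest for LDHA, from 525 to 1070 CPM.

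Of the entry steps, the followed genes HK2 and PFKP carried few UMIs. HK2, the hexokinase that traps glucose as glucose 6-phosphate, had 8.18 CPM in AT, 10.8 in BM and 12.0 in PB, and the intervals of BM and PB overlapped. A HK2 UMI was detected in 5.48%, 6.94% and 8.35% of the cells. PFKP, the platelet-type phosphofructokinase of the committed step, had 44.0, 57.0 and 64.3 CPM. Intervals of PFKP, which cover counting error only, did not overlap between any pair of sources.

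In the middle of the pathway the sources lay closest for GAPDH and ALDOA, but not for TPI1. The highest source exceeded the lowest 1.13-fold, 1.17-fold and 1.45-fold in turn. Over the alternatives, the PB minus BM difference of log2(CPM + 1) reached 0.41 for GAPDH and 0.43 for ALDOA, from 0.17 and 0.20. ALDOA, the aldolase that splits fructose 1,6-bisphosphate, had 927 CPM in AT, 950 in BM and 1088 in PB. GAPDH, which makes NADH from the triose and often serves as a reference transcript, had 2999, 2843 and 3201 CPM, so that its highest level was 1.13 times its lowest. GAPDH and TPI1, the isomerase that interconverts the triose phosphates, were the exceptions in order. GAPDH was lowest in BM, and TPI1 had 392 CPM in AT, 569 in BM and 479 in PB. BM therefore exceeded PB for TPI1 by a difference of log2(CPM + 1) of 0.25 (a PB minus BM difference of -0.25, counting bounds -0.29 to -0.21), which shrank to -0.01 with TMM factors.

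The later steps differed more. PGK1, phosphoglycerate kinase, which makes the first ATP of the pathway, had 247 CPM in AT, 283 in BM and 409.5 in PB. PGAM1, phosphoglycerate mutase, had 209, 306 and 376 CPM. PKM, the pyruvate kinase of most tissues, had 492, 592 and 759 CPM. For all 3 the order was AT, BM, PB with no overlap of intervals, but the share of all genes without overlap was not computed. The highest source exceeded the lowest 1.66-fold for PGK1, 1.80-fold for PGAM1 and 1.54-fold for PKM.

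LDHA, the lactate dehydrogenase subunit that favours lactate formation, differed most, with 525 CPM in AT (518 to 532), 707 in BM (699 to 715) and 1070 in PB (1060 to 1080). It was the only gene of the 9 past a difference of log2(CPM + 1) of 1, at 1.02 for PB minus AT (counting bounds 0.99 to 1.06), beside 5.8% of genes past that limit in the same direction and 4.02% in the other. LDHA was also detected more widely, in 87.6% of the AT cells, 92.5% of the BM cells and 96.9% of the PB cells, and in 64.3%, 72.9% and 83.7% after every cell was thinned to 2500 UMIs. The difference stayed positive in 13 of 13 alternatives but reached 1 in only 5 of them, and it was 0.83 without a rebuilt PB cluster of 360 cells described below.

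Against all genes, the shift of the pathway depended on the pair. The median difference of the 9 genes for PB minus AT was 0.54 on the log2(CPM + 1) scale, and that of all genes was 0.03. For BM minus AT it was 0.36 where the median gene stood at 0.24, with 8 of 9 higher beside 72.2% of genes and 0 of 9 past 1 in either direction beside 8.33% higher and 2.46% lower. For PB minus BM it was 0.20 where the median gene stood at -0.20, with 8 of 9 higher beside 28.7% of genes and 0 of 9 past 1 beside 2.15% higher and 5.8% lower. The order of AT and BM was not firm, since the BM minus AT difference of the sum, 0.11, became -0.17 with TMM factors, where 4 genes (GAPDH, PGK1, PKM and ALDOA) were lower in BM. PB minus AT remained at 0.31 and PB minus BM was 0.47 with those factors.

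The isozymes of the pathway outside the 9 genes did not all follow. LDHB, the subunit that favours pyruvate formation, was highest in AT, at 943 CPM against 666 in BM and 718 in PB. LDHA thus made up 35.8% of the LDHA and LDHB UMIs in AT (exact Clopper-Pearson interval 35.4 to 36.2), 51.5% in BM (51.1 to 51.9) and 59.8% in PB (59.5 to 60.2), and the order was the same after thinning (35.6%, 50.02% and 59.3%). ALDOC, the brain-type aldolase, had 19.7, 17.9 and 48.7 CPM, and ENO2, the neuronal enolase, had 14.7, 27.2 and 7.02. HK1, the widely expressed hexokinase, had 44.5, 55.1 and 64.2 CPM, so that HK2 made up 15.5%, 16.3% and 15.8% of the UMIs of both, with overlapping intervals. Of 16 listed isozymes and steps, 8 had at least 10 CPM in PB or AT. Higher in PB were 6 of these 8, beside 53.5% of all genes. Among isozymes of muscle, liver or germ cells, PGAM2, PKLR, LDHC and PGK2 were at most 0.577 CPM, while ENO3, the muscle enolase, had 14.1, 23.4 and 22.6 CPM.

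Lactate and glucose transporters gave a mixed picture. SLC16A3, the lactate exporter of glycolytic cells, had 21.7 CPM in AT, 34.5 in BM and 63.7 in PB, whereas SLC16A1, the more general lactate carrier, had 26.6, 26.0 and 25.5. SLC16A3 therefore made up 44.9%, 57.1% and 71.4% of the UMIs of both carriers. BSG, the chaperone of these carriers, ran the other way with 644, 436 and 416 CPM. SLC2A1, the basal glucose transporter, had 13.8, 22.9 and 26.1 CPM. In the transporter list, 2 of the 4 genes with at least 10 CPM were higher in PB than in AT, beside 53.5% of all genes.

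Regulators and branches of the pathway split between PB and AT much as all genes did. PDK1, a mitochondrial kinase that inhibits pyruvate dehydrogenase, had 38.7, 50.3 and 70.7 CPM, while HIF1A, which encodes a hypoxia-inducible factor subunit, had 129, 149 and 133. Of the regulators with at least 10 CPM, 3 of 6 were higher in PB than in AT. The same held for 6 of 12 branch genes, and both counts stand beside 53.5% of all genes. In BM against AT, 6 of 7 regulators and 5 of 12 branch genes were higher, beside 72.2% of all genes. In PB against BM, 1 of 7 and 7 of 12 were higher, beside 28.7%. TKT, transketolase of the pentose phosphate pathway, had 266 CPM in AT, 128 in BM and 100.3 in PB. Hypoxia genes outside glycolysis split as well: BNIP3, a mitophagy receptor, had 528, 575 and 1232 CPM and DDIT4, an inhibitor of mTOR signalling, 208, 276 and 513, but ADM (adrenomedullin) had 730, 110.0 and 60.8 CPM. Of the 9 hypoxia genes with at least 10 CPM, 6 were higher in PB than in AT, beside 53.5% of all genes. The 13 nuclear genes of oxidative phosphorylation with a row summed to 4132, 4605 and 4138 CPM. Higher in PB than in AT were 5 of the 13, beside 53.5% of all genes, and the median difference of the 13 was -0.01.

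Glycolysis transcripts also varied from cell to cell within each source. At 2500 UMIs per cell, the 9 genes together had medians of 13, 15 and 17 UMIs in AT, BM and PB, and the 5th and 95th percentiles were 5 and 27, 6 and 27, and 7 and 35. The variance was 3.17, 2.97 and 3.96 times the mean, where counting alone gives a ratio near 1. LDHA UMIs had a variance of 1.71, 1.89 and 2.41 times the mean, while the same ratio was 1.09, 1.17 and 1.08 for LDHB.

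To see whether the transcripts varied together, each gene was correlated with the sum of the other members across the thinned cells of a library. Of 1025 genes with at least 100 CPM in every library, LDHA had the highest mean Pearson r over the 3 libraries (0.35 in AT, 0.31 in BM and 0.42 in PB), followed by ALDOA and PKM. GAPDH ranked 7th with a mean r of 0.278, TPI1 9th with 0.246, PGK1 11th with 0.231 and PGAM1 30th with 0.167, whereas the median of all genes was 0.0175. PFKP (0.109) and HK2 (0.0165) lay below 100 CPM and had too few UMIs per cell for r to say much. The points of a correlation are cells of 1 library, which share its depth and free RNA, so r is given as a description.

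**Figure D2:**
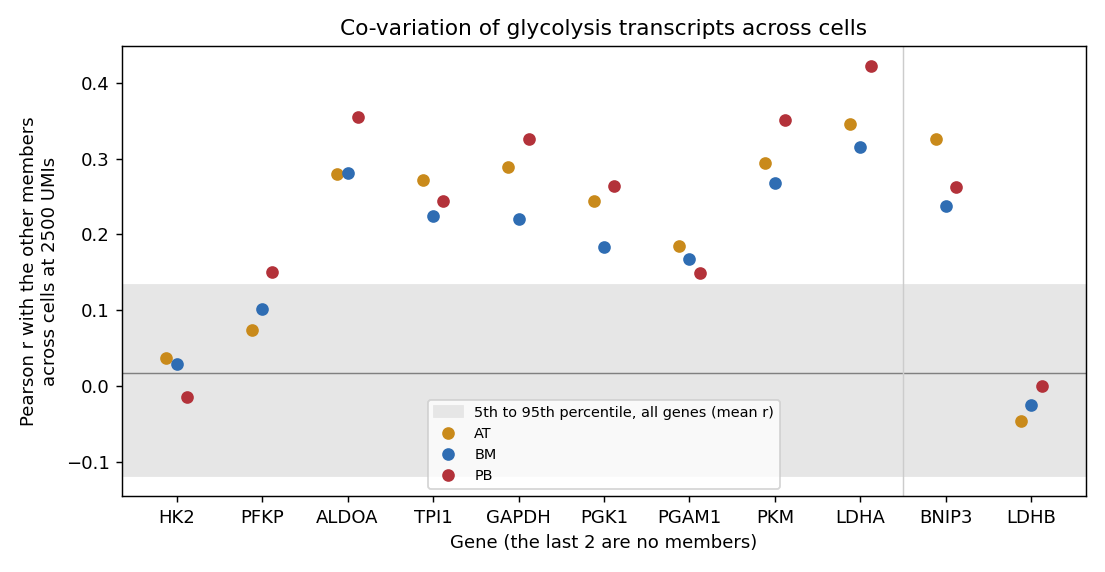
Pearson r between each gene and the sum of the other glycolysis genes across kept cells thinned to 2500 UMIs (y axis), 1 point per library, with BNIP3 and LDHB for comparison. The grey band spans the 5th to 95th percentile of the mean r of 1025 genes and the line is their median. In all 3 libraries 7 members lie above this band of the mean, while LDHB lies near 0. PGAM1 in PB (0.149) is below the 95th percentile of the PB library alone (0.162).

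Outside the fixed lists, the 5 genes whose pattern across cells was most like that of the members were ANXA1, MIF, ANXA2, SERPINH1 and MYL6, with mean r of 0.290, 0.280, 0.280, 0.233 and 0.214. ANXA1 and ANXA2 are annexins that bind membranes in the presence of calcium, MIF is a secreted cytokine, SERPINH1 a collagen chaperone and MYL6 a myosin light chain. BNIP3 had a mean r of 0.275 and ranked 8th. LDHB, in contrast, had -0.0470 in AT, -0.0254 in BM and -0.000555 in PB, and the pair LDHA and LDHB had -0.0516, -0.0539 and -0.0167. At the other end stood RPLP0, a ribosomal stalk protein, with a mean r of -0.256.

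Cells were then ordered by LDHA, with the UMIs of every cell split at random into equal parts so that one part ranked the cells and the other was measured. The 8 other glycolysis genes were higher in the 25% of cells with the most LDHA than in the 25% with the least, at 6734 against 4222 CPM in AT, 6911 against 4590 in BM and 8488 against 4953 in PB. PKM differed by 1.02, 0.98 and 1.24 on the log2 scale, and PGK1 by 1.23, 0.92 and 1.12. GAPDH differed least of the genes above 100 CPM, with 0.47, 0.36 and 0.56. HK2 was 1.17 higher in AT and 1.37 in BM, but 0.01 in PB, with only 17 UMIs in the lowest AT cells.

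**Figure D3:**
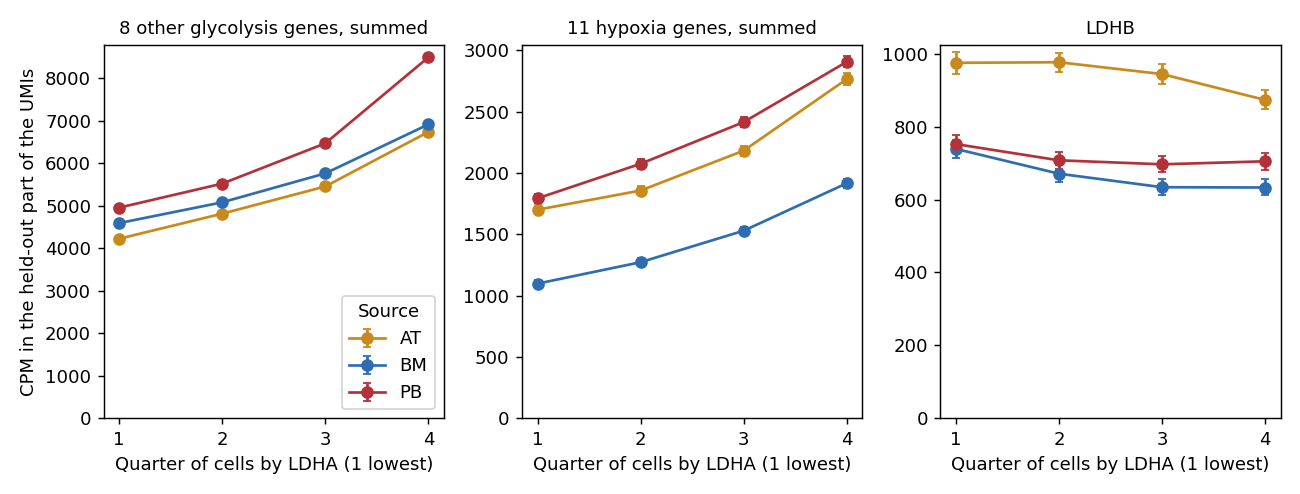
CPM (y axes) of the 8 other glycolysis genes summed, of 11 hypoxia genes summed and of LDHB in 4 equal groups of cells ordered by LDHA (x axis, 1 lowest), measured in UMIs not used for the ordering, with exact 95% Poisson intervals. The glycolysis and hypoxia sums climb in every library, the former in PB from 4953 to 8488 CPM, and LDHB is lower in the top group than in the bottom one.

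The summed hypoxia genes outside glycolysis moved in the same direction between the top and bottom LDHA groups. The sum differed by 0.70 in AT, 0.80 in BM and 0.70 in PB. BNIP3 alone differed by 1.48, 1.17 and 0.88, DDIT4 by 0.52, 0.26 and 0.27, P4HA1 by 0.38, 0.59 and 0.73, and ADM by 0.11, 0.59 and 0.42. Much of the rise in CPM was BNIP3, which went from 312 to 871 in AT, where the sum went from 1700 to 2764, and from 880 to 1618 in PB, where the sum went from 1792 to 2905. Nuclear oxidative phosphorylation genes differed by 0.15, 0.16 and 0.23, and LDHB by -0.16, -0.22 and -0.09. Proliferation genes were higher by 0.64, 0.54 and 0.36, and stromal markers differed by -0.22, -0.05 and -0.17. Cells of the top group had median depths of 7293, 7019 and 7805.5 UMIs against 6239.5, 6422 and 7363 in the bottom group, and the summed mitochondrial UMIs differed by -0.03, -0.13 and -0.31. The part of depth and of mitochondrial UMIs in these differences was not tested.

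Clusters were rebuilt within each source with the glycolysis genes left out of the variable genes. The summed level of the 9 genes ranged from 4531 to 7182 CPM over 7 AT clusters, from 5346 to 7158 over 6 BM clusters and from 5409 to 12876 over 9 PB clusters of at least 50 cells. The lowest AT cluster was led by SCARA5, a ferritin receptor, and KRT8, a keratin, and had 313 CPM of LDHA with 1113 of LDHB, so that LDHA made up 21.9% of the UMIs of both. In AT and BM the highest clusters were both led by genes of mitosis and its exit (CDC20, CDKN3 and CDCA3), and LDHA reached 780 and 894 CPM there. Only 7.76% and 7.86% of the cells of those clusters held a TOP2A UMI, while 15.7% and 29.5% were scored as G1 from cell cycle genes. Most of their cells were thus outside G1 by that score, yet lacked a TOP2A UMI and fell among the other cells in the TOP2A split below. PB cluster 3, also led by CDKN3 and CDCA3, had 8543.5 CPM, with 37.5% of its cells in G1 and 3.35% with a TOP2A UMI.

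The clusters richest in TOP2A cells, with 51.4% in AT, 41.2% and 42.3% in BM and 42.1% in PB, had summed levels of 6446, 6483, 6820 and 6522 CPM. In these clusters LDHA took 46.8% of the LDHA and LDHB UMIs in AT, 63.2% and 65.2% in BM and 70.6% in PB. LDHB was at its lowest in such a cluster in each source, at 706, 445 and 441 CPM.

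**Figure D4:**
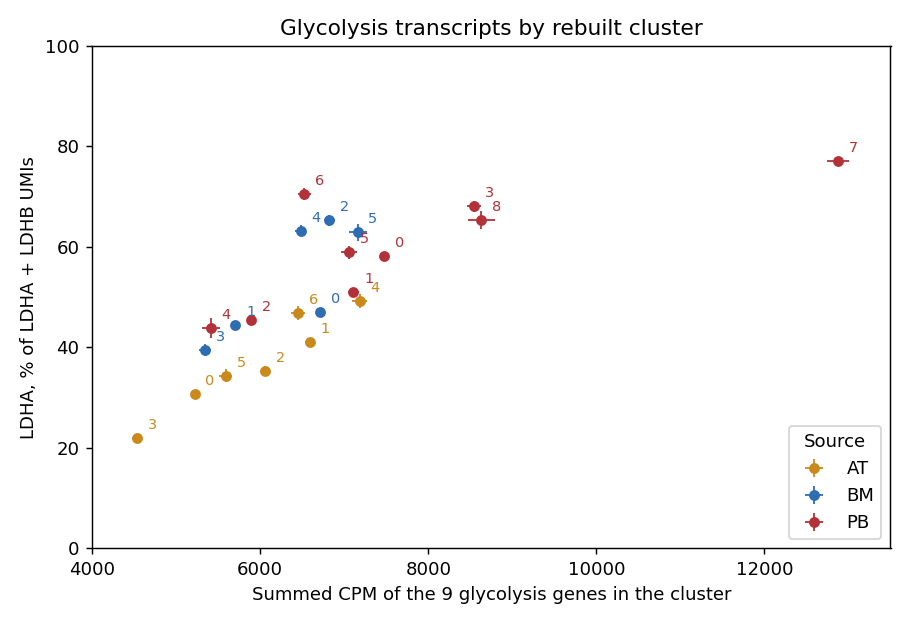
LDHA as a percentage of LDHA and LDHB UMIs (y axis) against the summed CPM of the 9 glycolysis genes (x axis) in rebuilt clusters of at least 50 cells, labelled by cluster number and coloured by source, with exact 95% intervals. PB cluster 7 stands apart at 12876 CPM and 77.1%, and AT cluster 3 is lowest on both axes with 4531 CPM and 21.9%.

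PB cluster 7, with 360 cells or 6.77% of the PB-derived MSCs, stood apart from all other clusters. Its genes summed to 12876 CPM, against 8633 in the next highest PB cluster and 7028 in the other 4958 PB cells together. LDHA had 2805 CPM inside and 932 outside, PKM 1662 and 687, ALDOA 1799 and 1032, GAPDH 4796 and 3074, PGK1 671 and 389, and PFKP 138 and 58.5. Not every step took part: PGAM1 had 365 CPM inside (344 to 387) and 377 outside (371 to 383), and HK2 7.81 (5.01 to 11.6) and 12.4 (11.3 to 13.5).

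LDHA made up 77.1% of the LDHA and LDHB UMIs of cluster 7 (76.3 to 77.9) and 56.8% outside it (56.4 to 57.2). ALDOC and SLC16A3 were also higher inside, with 81.4 against 46.1 and 103 against 60.6 CPM, and nuclear oxidative phosphorylation genes summed to 5388 against 4039. The 11 hypoxia genes summed to 2900 CPM inside and 2250.5 outside, although BNIP3 among them had 1265 and 1229. Stromal markers were lower inside, at 13215 against 16003 CPM. The cluster was led by PIGK, part of the enzyme that attaches lipid anchors to proteins, by PLTP, a phospholipid transfer protein, and by the matrix proteins SERPINF1 and PCOLCE, besides 1 gene without a symbol. Its median depth was 8770.5 UMIs, its median mitochondrial share the lowest of the PB clusters at 1.04%, and 4.44% of its cells held a TOP2A UMI against 6.03% outside. Without these cells, PB still had the highest level for 8 of 9 genes, with no share of all genes computed for this set. The difference of the sum was then 0.27 in place of 0.35 for PB minus AT and 0.15 in place of 0.24 for PB minus BM.

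The second question was whether the transcripts went with cycling. Cells were to be split by a UMI of MKI67 or of TOP2A, the topoisomerase that untangles DNA in dividing cells, but no row was named MKI67, so TOP2A alone made the classes. A TOP2A UMI was found in 412 AT (7.63%), 709 BM (12.7%) and 315 PB cells (5.92%), with median depths of 9102.5, 9573 and 10267 UMIs against 7202, 6640 and 7658 in the other cells. GAPDH alone made up 51.3%, 45.0% and 42.9% of the sum of the 9 genes in AT, BM and PB, and the sum without GAPDH is not given here by cycling. The summed level of the 9 genes was 5998 CPM in cycling and 5828 in other cells of AT, 6347 and 6312 in BM, and 6752 and 7517 in PB. On the log2(CPM + 1) scale these differences were 0.04, 0.01 and -0.15, with a mean of -0.04 ± 0.10 (SD, n = 3 libraries) and an exact two-sided sign-flip permutation p of 1, where 0.25 is the smallest this design can give.

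Single genes did not share 1 direction. In edgeR's quasi-likelihood test on the 6 class sums, with the library as a block and Benjamini-Hochberg adjustment over 12462 genes, 0 of the 9 genes were higher in cycling cells beside 10.6% of genes, and 2 were lower beside 10.5%. By the unadjusted p of that test, 3 genes were higher and 2 lower at 0.05, beside 4242 of the 12462 genes in either direction. DESeq2 called 0 higher and 1 lower, beside 8.83% and 8.04% of the 10770 genes it gave an adjusted p. The spread in this test is that between 3 cultures of 1 mare.

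ALDOA was lower in cycling cells in all 3 libraries, with 774 against 943 CPM in AT, 820 against 976 in BM and 881 against 1105 in PB. The log2 fold change was -0.39 ± 0.05 (SE; edgeR adjusted p = 0.000754). The call held in 13 of 15 alternatives and was lost with at least 2 proliferation genes as the definition of cycling (-0.13, edgeR adjusted p = 0.148) and with no replicate block (-0.39, edgeR adjusted p = 0.394). GAPDH had 3059 against 2993 CPM in AT, 2560 against 2899 in BM and 2707 against 3242 in PB, so that AT went the other way on the CPM scale. Its log2 fold change was -0.24 ± 0.06 (edgeR adjusted p = 0.0205), and the call held in 10 of 15 alternatives. It was lost without the PB library (-0.18, adjusted p = 0.227), without TMM scaling (-0.14, adjusted p = 0.122), with DESeq2 (-0.25, adjusted p = 0.0577), with at least 2 proliferation genes (-0.040, edgeR adjusted p = 0.577) and with no replicate block (-0.23, edgeR adjusted p = 0.730).

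**Figure D5:**
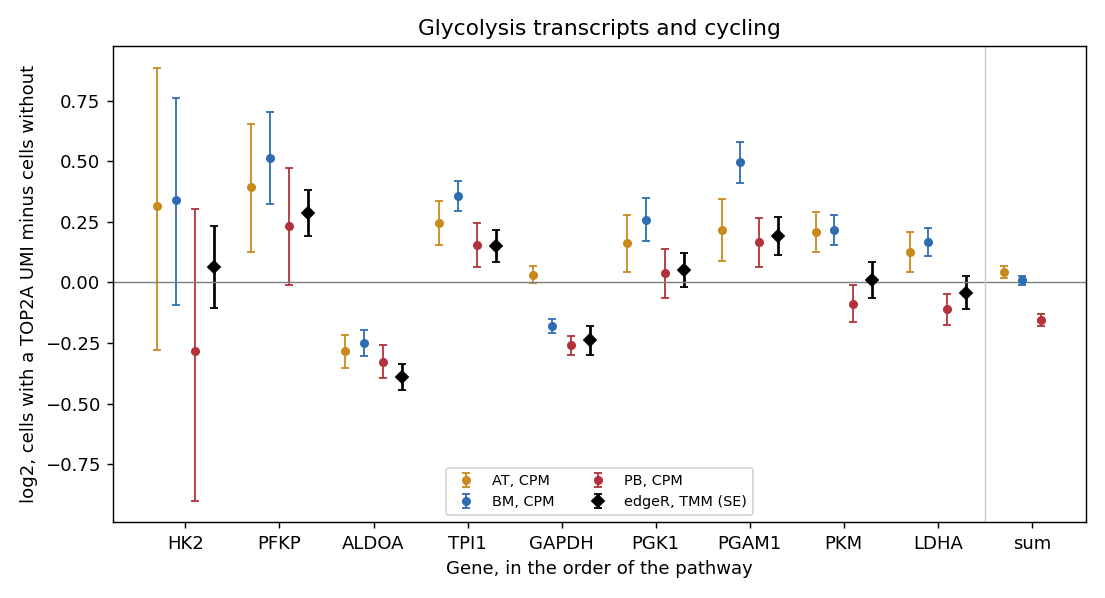
Difference between cells with and without a TOP2A UMI (y axis, log2) for the 9 glycolysis genes and their sum. Coloured points give log2(CPM + 1) differences in each library with 95% counting bounds. Black diamonds give the edgeR estimate with TMM scaling and its SE. ALDOA is below 0 in every library. PFKP, TPI1, PGAM1 and PGK1 are above 0 in every library without passing the adjusted test shown. The PB bounds of PFKP and PGK1 include 0.

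On the CPM scale 4 genes were above 0 in all 3 libraries, and they did not pass the adjusted test as reported. In PB the counting bounds included 0 for PGK1 (-0.064 to 0.137) and PFKP (-0.013 to 0.471). The share of all genes above 0 in all 3 libraries was not computed. Without TMM the median gene also stood above 0 in edgeR, at 0.06. PFKP had 56.4 against 42.7 CPM in AT, 76.4 against 53.1 in BM and 74.7 against 63.5 in PB (log2 fold change 0.29 ± 0.10 SE, edgeR adjusted p = 0.0603), and it passed in 4 of 15 alternatives, when cells were thinned (0.47, edgeR adjusted p = 0.0442), with no upper UMI limit (0.31, edgeR adjusted p = 0.0309), without TMM and with at least 2 proliferation genes. PGAM1 had 239 against 205, 404 against 286 and 418 against 373 CPM (0.19 ± 0.08, edgeR adjusted p = 0.116). TPI1 had 457 against 386, 696 against 543 and 529 against 475 CPM (0.15 ± 0.06, edgeR adjusted p = 0.133). PGK1 had 274 against 245, 328 against 274 and 419 against 409 CPM (0.05 ± 0.07, edgeR adjusted p = 0.669). PKM, LDHA and HK2 had log2 fold changes of 0.01, -0.04 and 0.06, and their CPM differences were above 0 in AT and BM and below 0 in PB.

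Which genes passed also differed with the scaling and the definition of cycling. With library-size scaling in place of TMM, 3 genes were higher (TPI1, PGAM1 and PFKP) beside 15.2% of genes and 1 lower beside 6.56%. The median over all genes was then 0.06 in place of -0.04, and 69.8% of all calls were higher, against 50.1% with TMM. When cells with a UMI of at least 2 proliferation genes were called cycling, which took in 2462 AT, 2983 BM and 2553 PB cells, 3 genes were higher (PKM, TPI1 and PFKP) beside 6.0% of genes and 0 lower beside 4.07%, and the sum differed by 0.12 in AT, 0.12 in BM and 0.15 in PB.

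Among the neighbours of the pathway, LDHB was lower in cycling cells, with 788 against 959 CPM in AT, 460 against 707 in BM and 558 against 731 in PB (log2 fold change -0.54 ± 0.08 SE, edgeR adjusted p = 0.000808). LDHA thereby made up 41.9% of the UMIs of both in cycling and 35.2% in other AT cells, 62.9% and 49.5% in BM, and 64.1% and 59.5% in PB. Of the 10 other isozymes and steps tested, 3 were lower (LDHB, ALDOC and GPI, the isomerase of glucose 6-phosphate), beside 10.5% of all genes, and 1 (HK1) was higher, beside 10.6%. Their log2 fold changes were -0.81 for ALDOC, -0.44 for GPI and 0.29 for HK1, with edgeR adjusted p of 0.00132, 0.00822 and 0.0453. The HK1 call held in only 4 of 15 alternatives and was lost without any 1 of the libraries (log2 fold changes from 0.25 to 0.31, edgeR adjusted p from 0.106 to 0.147). LDHB held in 14, ALDOC in 13 and GPI in 11, and GPI was lost without PB (-0.37, edgeR adjusted p = 0.0913) and when cells were thinned (-0.41, edgeR adjusted p = 0.106).

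Of the transporters, 1 of 5 was lower (BSG, -0.47, edgeR adjusted p = 0.000549), and of the regulators 1 of 9 (HIF1A, -0.32, edgeR adjusted p = 0.0179). These counts and those of the lists below stand beside 10.6% of all genes called higher and 10.5% called lower. In the branches PDHA1, a subunit of pyruvate dehydrogenase, was higher and PCK2, the mitochondrial carboxykinase, lower, with 10 of 12 not called. P4HA1, a collagen prolyl hydroxylase, was the 1 of 11 hypoxia genes called, and it was lower. Of the nuclear oxidative phosphorylation genes, ATP5MC3, an ATP synthase subunit, was higher, and NDUFB9, a complex I subunit, and ATP5F1A, another ATP synthase subunit, were lower. The calls held in 14 of 15 alternatives for BSG, 13 for PDHA1 and ATP5F1A, 12 for P4HA1, 11 for HIF1A and NDUFB9, 10 for PCK2 and 7 for ATP5MC3. Without the PB library the edgeR adjusted p was 0.101 for HIF1A, 0.198 for PCK2, 0.0543 for P4HA1, 0.160 for NDUFB9, 0.0522 for ATP5F1A and 0.0929 for ATP5MC3, with log2 fold changes of -0.33, -0.42, -0.39, -0.27, -0.38 and 0.27 beside -0.32, -0.48, -0.42, -0.29, -0.41 and 0.23 with it. ATP5MC3 had 0.17 without BM (edgeR adjusted p = 0.0798). With these, all 12 proliferation genes tested were higher and 5 of 7 stromal markers were lower in cycling cells, including COL1A1 and COL1A2, whose calls held without any 1 library, and CD44 and ENG, whose calls were lost without PB (-0.36 and -0.29, edgeR adjusted p = 0.0828 and 0.167) and, for ENG, without AT (-0.29, edgeR adjusted p = 0.120), so that the classes also differed in matrix transcripts, and the part of this in the ALDOA and GAPDH differences was not tested.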

How the data were processed

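Equine MSCs of 3 sources were profiled with the 10x Genomics 3′ chemistry, version 2, with 1 library per source. The authors used Cell Ranger (also named in the submitters' processing notes) with the EquCab3.0 build, and then ESAT, which adds reads just downstream of genes, leaves out overlapping exons of opposite strands and merges duplicated features. Each deposited matrix holds raw UMI counts as whole numbers, with genes in rows and barcodes in columns. Retrocopies and other near-identical copies of GAPDH, LDHA and related genes could have been merged or split by this counting, so those levels are uncertain to that extent, and 3′ counts were not scaled by length. It is not known whether barcodes called multiplets by the authors are still in the matrices.

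The members and lists were chosen with earlier results of these data known. All members, all list genes with a row and the 5 unlisted genes most like the members across cells could be named; other genes, such as those leading a cluster, were named after their values were seen. A gene missing from 1 matrix was set to 0. Levels are CPM of summed UMIs with exact Poisson 95% intervals (SciPy 1.17.1). Differences are of log2(CPM + 1), and 3 UMIs correspond to 0.0721 to 0.0750 CPM. Cycling was tested with edgeR 4.0.16 (TMM, filterByExpr, quasi-likelihood, adjusted p under 0.05), with DESeq2 1.42.0 as an alternative. Both class sums of a library come from different cells of 1 culture, which is why the library was a block. On simulated counts for this comparison with 12462 genes, 82 of 100 genes raised and 66 of 100 lowered 2-fold were recovered, and 6 of 12262 unchanged genes were called. The simulated libraries shared a common profile of non-cycling cells, and every gene had a dispersion of 0.01. These rates therefore do not carry over to differences below 2-fold or to libraries that differ by source. Clusters came from Seurat 5.3.0 and sctransform 0.4.2 (R 4.3.3) with 3000 variable genes, resolution 0.6 and the components the methods state. Cells were thinned without replacement. No doublets were removed for the values reported, and 1 alternative dropped 270, 279 and 266 cells, the top 5% by Scrublet score (Scanpy 1.11.5). No promoter or protein sequences were compared here. Results for some list genes are not reported here.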

Additional observations from a re-analysis of the deposited data

Results flagged for a closer look

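Results for LDHA, PKM and the sum with cycling pointed in opposite directions in the sources, judged by counting bounds, and the difference between sources was not tested because each source had 1 library. LDHA was higher in cells with a TOP2A UMI by 0.126 (AT) and 0.168 (BM) on the log2(CPM + 1) scale, and its difference was -0.111 in PB. PKM differed by 0.207 (AT), 0.217 (BM) and -0.0879 (PB). The sum of the 9 genes differed by 0.0415 in AT, 0.00792 in BM and -0.155 in PB, where the BM bounds include 0. All these differences are without TMM factors. In edgeR over the 3 libraries, LDHA had 0.06 without TMM and -0.04 with it, and PKM 0.11 and 0.01. The sum with cycling is not given here with TMM factors.

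Barcodes under 2500 UMIs entered no comparison and still held glycolysis UMIs above the limit of 3 counts. Their summed level was 7511 CPM over 6155 AT barcodes, 4938 over 526 BM barcodes and 6864 over 554 PB barcodes. In AT it exceeded the 5844 CPM of the kept cells. Of these AT barcodes, 5711 also occurred in the PB library, and their sum of 7862 CPM and LDHA of 1096 CPM stood beside 7459 and 1070 CPM in kept PB cells and 525 CPM of LDHA in kept AT cells.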

How the results depend on the processing

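The PB minus AT and PB minus BM differences of the sum kept their direction in all 14 alternatives each, from 0.17 to 0.58 and from 0.089 to 0.47. PB minus AT (0.35) moved beyond counting error to 0.30 with all barcodes of at least 500 UMIs, 0.31 with TMM factors, 0.30 without mitochondrial and ribosomal protein UMIs, 0.37 in non-cycling and 0.17 in cycling cells, 0.58 without GAPDH and 0.27 without PB cluster 7, an alternative chosen after seeing the data. PB minus BM (0.24) moved to 0.25 when thinned, 0.47, 0.29, 0.25, 0.089, 0.29 and 0.15 with TMM factors, without mitochondrial and ribosomal protein UMIs, in non-cycling cells, in cycling cells, without GAPDH and without cluster 7. BM minus AT (0.11) became -0.17 with TMM factors and was 0.10 when thinned, 0.059 with all barcodes of at least 500 UMIs, 0.0084 without mitochondrial and ribosomal protein UMIs, 0.081 in cycling cells and 0.29 without GAPDH. Single genes that changed sign were, for BM minus AT with TMM factors, PGK1 (-0.087), PKM (-0.0125) and ALDOA (-0.24). ALDOA also did with barcodes of at least 500 UMIs (-0.0041) and without mitochondrial and ribosomal protein UMIs (-0.069). In cycling cells GAPDH (-0.18) and HK2 (-0.039) did for PB minus AT and PFKP (-0.031) and HK2 (-0.39, from 0.15 with counting bounds that include 0) for PB minus BM. PB was then the highest source for 5 genes in place of 8, with no share of all genes computed.

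With cycling, the mean difference of the sum (-0.04) became 0.13 with at least 2 proliferation genes. The count of lower genes, 2, was 0 with that definition, 1 with DESeq2, 1 without TMM and 0 with no replicate block, where the library was left out of the model. It ranged from 1 to 2 over the fits without 1 library each and was 1 without PB. The count of higher genes, 0, was 1 when thinned, 3 with at least 2 proliferation genes, 1 with no upper UMI limit and 3 without TMM. Calls over all genes numbered 1320 higher and 1314 lower, 1894 and 818 without TMM, 741 and 502 with at least 2 proliferation genes, 684 and 732 when thinned, 760 and 456 without PB, and 360 and 4 with no replicate block. DESeq2 gave 951 and 866, with 1692 adjusted p missing. The mean r across cells, 0.224, was 0.349 on unthinned cells. The causes were not tested. MKI67 alone was not run, since it has no row, and shared barcodes were left out only where kept in another library too, because all kept PB barcodes occur somewhere in the AT library.

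With 1 mare and 1 library per source, no spread between animals or captures is known. HK2, at 8.18 to 12.0 CPM, is limited by depth within cells.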
